A study of Mus musculus with 3 samples.

Results

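Visceral white adipose tissue (VWAT) of obese mice was compared with that of lean mice, with 1 microarray on each side, so that the comparison described what the obesogenic diet alone went with. Its members were the genes of Illumina mouse bead arrays that were detected on the lean or the obese array. They numbered 10295 of the 10603 genes detected on at least 1 of the 3 arrays of the series. The lean group (labelled LFD-Vehicle) held C57BL/6JRj mice that the labels place on a low-fat diet with vehicle and the study's methods on regular chow. The obese group (HFD-Ve) held mice of the same strain on a high-fat diet that were injected weekly with the vehicle solution, and the third group (HFD-Rapa) had the same diet with weekly rapamycin for 22 weeks. The labels name no transgene in any group, and all 3 arrays are labelled as 28 weeks of age. The methods start the diet at 6 weeks of age and the injections 5 weeks later, with sacrifice after 22 weeks of injections. These times add up to more than the 28 weeks of the labels, and the sources used here do not settle the age. RNA of 5 mice was pooled per group. The study had male and female mice, and the sources used here do not say which sexes made up a pool. Diet, any difference in injections and the pool of mice cannot be told apart, and with 1 array a group no difference has a replicate check, so no test was made and no p-value is given.

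Visceral fat, here the perigonadal depot, stores triglyceride in adipocytes and also holds fibroblasts, vessel cells, a mesothelial cover and resident immune cells. When the depot outgrows its capacity, macrophages are known to gather around dying adipocytes and take up their lipid, and fibroblasts lay down collagen. Adipocytes can make fatty acids from glucose, a route that dietary fat is known to restrain. They also release hormones such as leptin and adiponectin.

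At a detection p under 0.01, 37.4% of the probes were detected on the lean array and 38.8% on the HFD-Ve array, with median raw signals of 92.7 and 106.9. All levels below are log2 normalized intensities, which compare 1 gene between arrays and not genes with each other. The defining genes of adipocytes were bright on both arrays. Adipoq, which encodes adiponectin, had a level of 14.55 on the lean array and 14.34 on the HFD-Ve array, and the lipid droplet gene Cidec stood at 14.08 and 14.16. Genes of other tissues were mostly not detected, except those of lymph node stroma, of which 5 of 8 with a probe were detected on both arrays. Of 12 mammary and skin epithelial genes with a probe 4 were measured, and of 11 epididymis and male tract genes 1. Of 10 liver genes with a probe 2 were measured (Serpina1a and Apoa1), each detected on 1 of the arrays only, and albumin (Alb) and transthyretin (Ttr) were not detected. None of the 9 ovary and uterus genes with a probe was detected. Of 14 skeletal muscle genes with a probe 5 were measured, and of 10 pancreatic genes 2. The muscle myosin light chain Myl1 had levels of 12.88 on the lean and 12.34 on the HFD-Ve array and the amylase Amy2a5 13.22 and 12.70, while the muscle genes Ckm and Mylpf and the pancreatic genes Cpa1 and Ctrb1 were not detected on either. The muscle genes past 1.5-fold were Pvalb and Tnni2 (higher) and Acta1 (lower), and the pancreatic one was the elastase Cela1 (2.34-fold higher).

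The obese and the lean depot differed in a large share of their detected genes. At 1.5-fold or more, 1552 of 10295 genes (15.1%) were higher on the HFD-Ve array and 1240 (12.0%) were lower, together 2792 genes (27.1%). The shares of 15.1% and 12.0% over all genes are the background for every list count below. The higher side reached further. At 2-fold 770 genes were higher and 412 lower, at 4-fold 156 and 51, and at 16-fold 10 and 2. The median difference over all genes was -0.06 on the log2 scale, with 1 gene in 20 below -0.90 and 1 in 20 above 1.24. Differences of 1.5-fold were more common among dim genes: 22.0% of the 2574 dimmest genes were higher and 14.9% lower, against 10.8% and 9.44% of the 2574 brightest. Of 9446 genes detected on both arrays 1179 were higher and 1089 lower. A further 576 genes were detected on the HFD-Ve array only and 273 on the lean array only. For these the fold is a lower bound ("at least"), the brighter level against the lowest detected signal of the other array or the gene's own signal there if that is higher. Of the 2792 genes, 524 were not detected on the dimmer array and 248 of them passed 1.5-fold at this bound. The list counts below use the fold as measured, and a count "at bounds" uses the bound for such genes. Where a gene past 1.5-fold had several probes, all ran the same way for 781 of 859 genes (90.9%), and the log2 difference of a gene's probes had an SD of 0.31.

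**Figure D1:**
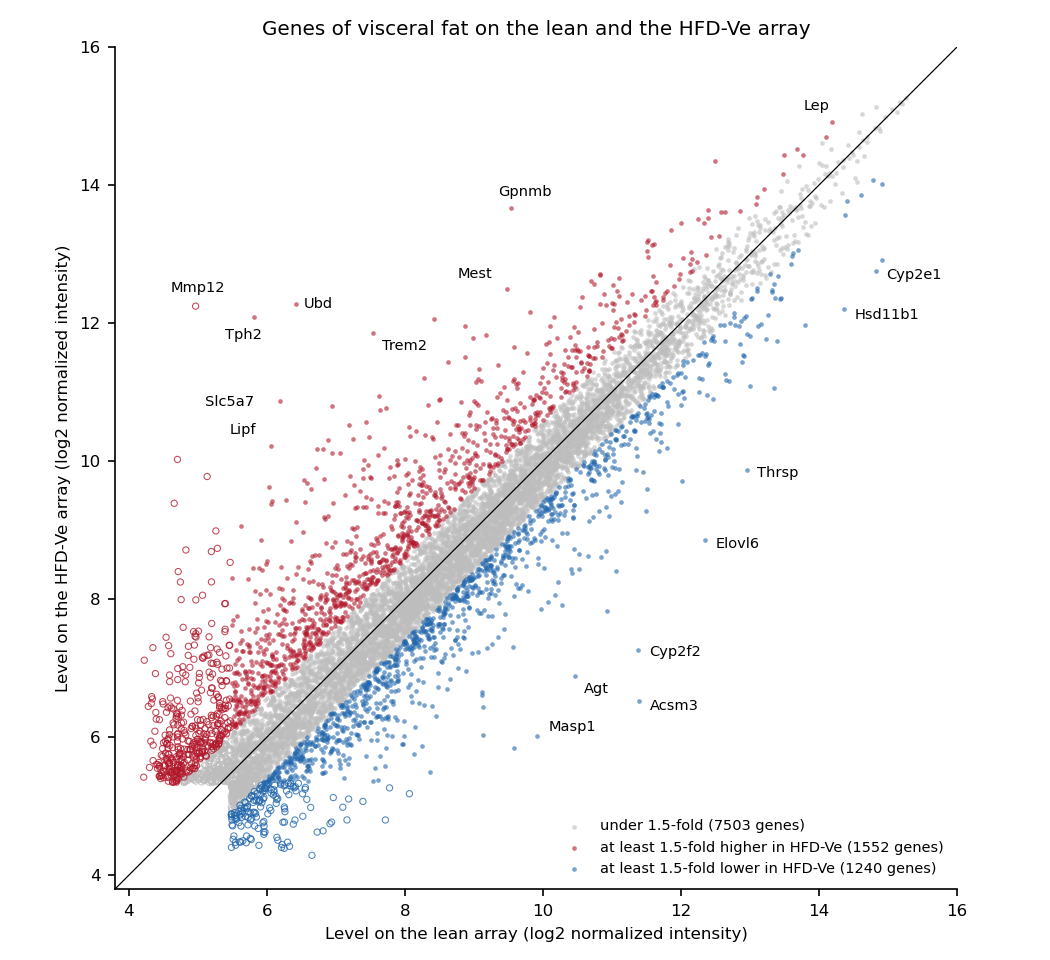
Level of each of 10295 genes on the lean array (x axis) and on the HFD-Ve array (y axis), both as log2 normalized intensity. Red points are the 1552 genes at least 1.5-fold higher, blue points the 1240 genes at least 1.5-fold lower, open circles are genes detected on 1 of the 2 arrays and the line marks equal levels. The red points reach further from the line than the blue ones.

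Among genes detected on both arrays, the highest were a mix of macrophage genes and genes better known from other tissues. Slc5a7, the choline transporter of cholinergic neurons, had a level of 6.19 on the lean array, 10.86 with HFD-Ve and 10.59 with HFD-Rapa, 25.5-fold higher in HFD-Ve. Lipf, known as gastric lipase, stood at 6.06, 10.21 and 8.65 on the same 3 arrays (17.8-fold). Both obese arrays were high for these genes and the lean array was low. Zranb3, a DNA repair helicase, was 14.4-fold higher, Tlr13, an endosomal sensor of bacterial RNA, 12.2-fold, and the stress-induced transcription factor Atf3 11.0-fold. The lectin receptors Clec4d and Clec7a were 10.8-fold and 10.7-fold higher, Glipr1 10.3-fold, the inhibitory receptor Cd72 10.2-fold and the lysosomal protease Ctss 10.1-fold. The other 5 of the 15 highest were Tph2, Ubd, Trem2, Gpnmb and Ctsk, at 12.5-fold or more.

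The genes that were lowest on the HFD-Ve array came mainly from metabolism and secretion. Cyp2f2, a cytochrome P450 known from mouse airway, had a level of 11.38 on the lean array, 7.26 with HFD-Ve and 5.85 with HFD-Rapa, 17.4-fold lower in HFD-Ve. Masp1, a protease that starts the lectin pathway of complement, stood at 9.91, 6.02 and 6.00 (14.8-fold lower, with the same direction in all 3 probes). Agt, the precursor of angiotensin, stood at 10.47, 6.88 and 6.21 (12.0-fold lower). For each of these the lean array was high and both obese arrays were low. Gpd2, the mitochondrial glycerol-3-phosphate dehydrogenase, was 8.60-fold lower, the acetyl-CoA carboxylase Acacb 6.32-fold, the paraoxonase Pon1 6.46-fold and Pth1r, the parathyroid hormone receptor, 5.21-fold. Tmem79 (13.4-fold), Prrt4 (8.60-fold), Dennd2d (7.30-fold), the adhesion receptor Adgrg2 (5.65-fold) and Oscp1 (5.48-fold) completed the 15 lowest with Acsm3, Elovl6 and Thrsp.

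**Figure D2:**
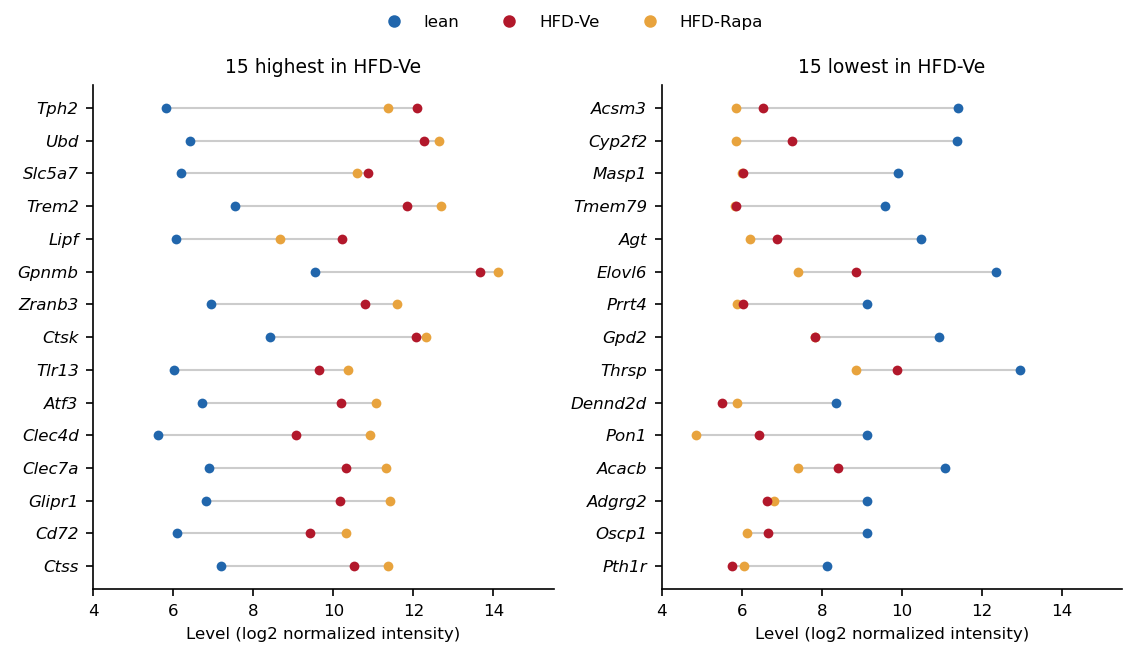
Level (log2 normalized intensity, x axis) of the 15 highest and the 15 lowest genes detected on both the lean and the HFD-Ve array, 1 point for each array. The widest gaps between the lean and the HFD-Ve point are those of Tph2 and Acsm3.

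Genes detected on the HFD-Ve array alone were led by leukocyte genes and matrix proteases. After Mmp12, the largest bounds belonged to Rgs1, a brake on G protein signalling in leukocytes, at least 23.3-fold higher, and to the stromelysin Mmp3, at least 19.6-fold. The integrin Itgad, the chemokine Ccl2 and the prostaglandin D synthase Hpgds were at least 15-fold, 9.54-fold and 8.29-fold higher. The calcium-binding Pvalb, the growth factor Gdf3, the potassium channel Kcnj14 and the homeobox gene Hoxc10 were at least 11.4-fold, 9.38-fold, 7.55-fold and 9.24-fold higher. On the lean array alone the bounds were smaller. Fn3k, a kinase that removes sugar from glycated proteins, was at least 6.60-fold lower on the HFD-Ve array, the DNA helicase Recql4 at least 5.41-fold and the protease inhibitors Serpina3b and Itih4 at least 5.19-fold and 3.53-fold. The others among the 10 were Hs3st3b1, a heparan sulfate sulfotransferase, at least 3.58-fold lower, Cd164l2 (4.14-fold), 2010016I18Rik (3.38-fold), Klhdc9 (3.07-fold), the adenylyl cyclase Adcy10 (3.02-fold) and Shroom1 (2.97-fold).

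The receptors and signalling proteins by which macrophages sense and engulf were higher as a group on the HFD-Ve array. Of 16 measured genes for Fc receptors, the phagocyte oxidase and their adaptors 15 passed 1.5-fold upwards and none downwards, against 15.1% and 12.0% of all genes, and their median log2 difference was 1.56 beside -0.06 over all genes. The activating Fc receptor Fcgr4 had levels of 7.25 and 10.32 on the lean and HFD-Ve arrays (8.38-fold), the adaptor Tyrobp 8.88 and 11.51 (6.21-fold), and the oxidase subunit Cyba 10.21 and 11.78 (2.98-fold). The inhibitory receptor Fcgr2b was the 1 member under the threshold (1.42-fold higher). Of 10 myeloid lectins and paired receptors 8 were higher and none lower (median 1.53), among them Lilrb4a at 9.11-fold and Sirpa, the receptor of the "do not eat me" signal, at 2.89-fold. Among 23 genes of Toll-like receptors and the NF-kB pathway 14 were higher and none lower (median 0.76). The receptors Tlr8, Tlr1, Tlr6 and Tlr7 were 5.68-, 4.50-, 3.13- and 2.81-fold higher, whereas the lipopolysaccharide receptor Tlr4 (1.27-fold) and its partner Cd14 (1.03-fold) were under 1.5-fold. In a whole tissue, more cells of a type and more RNA of a gene in each cell cannot be told apart.

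Genes that mark macrophages in general were higher in 21 of 25 with none lower (median 1.49), and their summed level was 14.9 on the lean array, 16.4 with HFD-Ve and 17.0 with HFD-Rapa. Adgre1, which encodes the F4/80 antigen, had levels of 9.81, 12.17 and 12.61 on these arrays, 5.14-fold higher in HFD-Ve with all 3 probes alike. Mpeg1, the pore-forming perforin-2 of macrophages, was 8.54-fold higher and the colony-stimulating factor receptor Csf1r 2.53-fold. Ccr2 and Cybb, both known from monocytes, were not detected on either array, and Cd68 had no named probe. Resident and alternatively activated macrophage genes ran both ways. Of 15 measured members 5 were higher and 2 lower, with a median of 0.03 that turned to -0.01 with a 75th percentile shift. The lipid transfer protein Pltp was 3.23-fold, the folate receptor Folr2 2.03-fold and the mannose receptor Mrc1 1.71-fold higher, and the lectin Clec10a 2.02-fold, and Arg1, arginase 1, at least 2.75-fold. The scavenger receptor Cd163 was 1.86-fold lower, with levels of 9.77 and 8.87, and Retnla, a secreted protein of alternatively activated macrophages, 2.22-fold lower, with levels of 13.27 and 12.11. Timd4 and Lyve1, which mark long-lived resident macrophages in mice, were at 6.24 and 6.13 and at 9.67 and 9.49.

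Genes of the lysosome, where engulfed lipid and protein are broken down, were higher in part. Of 24 genes for lysosomal hydrolases and membrane proteins 13 were higher and 1 lower (median 0.61), the fucosidase Fuca1 (1.53-fold lower). The endopeptidase Lgmn was 3.67-fold, the galactosidase Glb1 3.34-fold and the protective protein Ctsa 2.91-fold higher, while the membrane proteins Lamp1 and Lamp2 were 1.19-fold and 1.05-fold higher, under the threshold. Of 14 subunits of the proton pump that acidifies the lysosome 5 were higher and none lower (median 0.28), led by Tcirg1, the pump subunit known from osteoclasts, at 2.77-fold. Of 17 genes of fatty acid uptake and cholesterol efflux 8 were higher (7 at bounds) and 2 lower, with a median of 0.03. Nceh1, a cholesterol ester hydrolase, was 6.95-fold, the sterol transporter Abcg1 4.03-fold and its relative Abca1 at least 1.27-fold higher, whereas the lipoprotein receptor Scarb1 was 2.18-fold lower and Apoe (13.04 and 12.76) and the sterol sensor Nr1h3 (11.34 and 11.17) were within 1.5-fold. Of 16 iron and heme genes, which macrophages use to recycle iron, 7 were higher (6 at bounds) and 2 lower (median 0.45). Hmox1, which degrades heme, was 8.31-fold higher and the iron exporter Slc40a1 2.0-fold, while Cp, the ferroxidase ceruloplasmin, was 3.75-fold lower and the iron carrier Trf 1.87-fold lower.

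Promoter sequence of RefSeq (build GRCm38.p6, from 250 bases before to 50 bases after each start site) was available for 8331 of the measured genes. The letters GAGGAAGT, a core bound by the macrophage factor PU.1, occurred on either strand in the promoters of 77 of 1212 higher genes (6.35%), 31 of 969 lower genes (3.20%) and 314 of all 8331 genes (3.77%). They occurred in 3 of 17 macrophage genes and 2 of 15 lipid-associated macrophage genes. Among those at least 1.5-fold higher these were C1qc, Cd53, Ctss and Mmp12, each with the motif on the reverse strand as ACTTCCTC. The E-box CACGTG, which the lipogenic factors ChREBP and SREBP-1 are known to bind in related forms, occurred in 100 of 969 lower genes (10.3%), 107 of 1212 higher genes (8.83%) and 1006 of all 8331 (12.1%). It occurred in 3 of 15 fatty acid synthesis genes, which were Elovl5, Mlxipl and Slc25a1. Each was at least 1.5-fold lower, as were 16 of the 18 measured genes of that list. It also occurred in 4 of 14 cholesterol genes, which did not include the lower genes of the cholesterol list. Of 4 other motifs searched on both strands, the sterol element core TCACCCCAC of SREBP occurred in 0 of 15 fatty acid and 0 of 14 cholesterol genes and in 0.413% of lower and 0.636% of all genes. The TATA box TATAAA occurred in 14.4% of higher, 10.1% of lower and 9.48% of all genes, the cyclic AMP element TGACGTCA in 2.64%, 3.30% and 3.47%, and the C/EBP site TTGCGCAA in 0.0825%, 0.413% and 0.312%. The stretches below lie before the start site, with up to 40 bases on each side of the motif in capitals. They are shown as the sequence context of the motif in listed genes that passed 1.5-fold. A match of letters is a description and not a binding site.
C1qc, chr4:136893062-136893149, strand -: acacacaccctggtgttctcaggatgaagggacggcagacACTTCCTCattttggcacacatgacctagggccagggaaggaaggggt
Mmp12, chr9:7344269-7344356, strand +: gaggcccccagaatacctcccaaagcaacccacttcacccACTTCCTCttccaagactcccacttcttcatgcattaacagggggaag
Elovl5, chr9:77917164-77917249, strand +: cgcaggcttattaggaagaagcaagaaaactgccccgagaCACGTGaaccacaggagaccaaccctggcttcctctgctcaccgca
Mlxipl, chr5:135089752-135089837, strand +: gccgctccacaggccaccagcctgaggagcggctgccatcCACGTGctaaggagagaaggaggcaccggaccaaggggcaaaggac
Slc25a1, chr16:17928413-17928469, strand -: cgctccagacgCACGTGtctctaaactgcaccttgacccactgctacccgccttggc

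The chemokines that draw monocytes were among the genes with the largest differences. Of 15 CC chemokines measured 9 were higher and 3 lower (median 0.78). Ccl7 had levels of 7.44 on the lean array, 10.57 with HFD-Ve and 10.68 with HFD-Rapa (8.78-fold higher in HFD-Ve), and Ccl4 5.92, 8.85 and 9.77 (7.64-fold). Ccl3 was at least 3.59-fold higher. The 3 lower CC chemokines were the eosinophil attractant Ccl24 (2.31-fold), Ccl27a (2.29-fold) and the lymphatic chemokine Ccl21a (1.63-fold). Of 10 CXC chemokines, counted with Cx3cl1, 7 were higher (6 at bounds) and none lower, led by Cxcl14 at 5.82-fold. Of 13 measured cytokines and antagonists 3 were higher (2 at bounds) and 1 lower. Il6, Il1a, Il1b, Il10 and Il4 were not detected on either array, and Tnf was detected on the HFD-Ve array only, at 5.45, below the lowest detected lean level of 5.48, so that no fold is given. The study's quantitative PCR measured all of these transcripts in VWAT of the HFD groups, so a missing array signal does not mean that the RNA is absent. Il1rn, the interleukin 1 receptor antagonist, was at least 5.70-fold and Tgfb1 1.88-fold higher, and Il34, a ligand of the Csf1 receptor, was 1.58-fold lower. Il18 (7.89 and 7.61) and Il33 (7.61 and 7.92) were within 1.5-fold. Among 13 genes of leukocyte adhesion 8 were higher and none lower (median 1.06). The integrin chain Itgb2 was 5.45-fold, the hyaluronan receptor Cd44 4.83-fold, the vessel ligands Vcam1 and Icam1 2.62-fold and 2.16-fold higher, and Itgax, which encodes CD11c, at least 3.91-fold.

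Antigen presentation genes were higher, while the defining genes of T cells were within 1.5-fold or not detected. Of 14 measured genes of MHC class II presentation 12 were higher and none lower (median 0.80). The class II chain H2-Aa had levels of 11.60 and 12.69 on the lean and HFD-Ve arrays (2.13-fold), and Ciita, the master regulator of the class II genes, 6.55 and 7.49 (1.92-fold). Among T cell genes 4 of 11 were higher and none lower (median 0.36). The receptor chains Cd3e, Cd3d and Cd3g stood at 6.60 and 6.49, 6.34 and 6.76, and 6.80 and 7.02, all within 1.5-fold. Cd4 and Cd8a were not detected on either array, although the study's quantitative PCR measured Cd4 and Cd8 transcripts in VWAT. Foxp3, the factor of regulatory T cells, stood at 8.94 and 9.37, also within 1.5-fold. The higher ones were the interleukin 7 receptor Il7r (9.12-fold), Thy1, which fibroblasts also express (1.71-fold), the adaptor Lat (1.56-fold) and Cd6 (at least 1.42-fold). In the B cell list, 5 of 11 were higher (4 at bounds) and 1 lower (median 0.55). Ms4a1, which encodes CD20, was not detected, although the study's quantitative PCR measured it in VWAT. Blnk, an adaptor of the B cell receptor that macrophages also use, was 6.32-fold higher, Cd37 1.87-fold, the receptor chain Cd79b 1.65-fold, Fcrla 1.6-fold and Cd22 at least 1.34-fold, and the plasma cell factor Xbp1 was 1.63-fold lower.

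Mast cell genes were higher in 6 of 9 with none lower (median 1.14). The proteases Cpa3, Cma1 and Mcpt4 were 3.01-fold, 2.58-fold and 2.21-fold higher, and the IgE receptor chain Fcer1a had levels of 7.22, 8.82 and 10.05 on the lean, HFD-Ve and HFD-Rapa arrays (3.03-fold in HFD-Ve). The dendritic cell genes ran both ways, 3 of 10 higher and 3 lower. The factor Irf8 was 4.65-fold, the maturation marker Cd83 5.58-fold and the actin bundler Fscn1 1.80-fold higher, while Cd209a (2.25-fold), the plasmacytoid marker Siglech (2.03-fold) and Itgae, which encodes CD103 (2.73-fold), were lower. Interferon-stimulated genes were close to the median of all genes, with 5 of 22 higher (4 at bounds), none lower and a median of 0.06. Oasl1, Cxcl10, Ifi47 and Rsad2 were 2.49-, 1.88-, 1.70- and 1.65-fold higher and the RNA sensor Ifih1 at least 1.27-fold.

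The remaining immune lists were mixed. Of 14 complement genes 6 were higher and 3 lower (median 0.53). The 3 chains of C1q, which macrophages make, were 2.69-fold (C1qa), 2.73-fold (C1qb) and 2.91-fold (C1qc) higher, and C2, C6 and C7 were 2.90-, 2.85- and 1.72-fold lower. Of 7 measured neutrophil genes 2 were higher and 2 lower. S100a8 was 3.84-fold and Ncf1 at least 2.13-fold higher, Mmp9 was 3.10-fold and the elastase Elane at least 1.73-fold lower, and the granule genes Ngp, Camp, Ltf and Mpo were not detected on either array. Of 5 measured genes of natural killer and cytotoxic cells Ccl5 and Nkg7 were higher (2.43-fold and 1.54-fold), and the receptor Ncr1 and granzyme B (Gzmb) were not detected. Of 17 genes of MHC class I and the immunoproteasome 5 were higher and none lower (median 0.19). Besides Ubd these were H2-K1 (1.79-fold), Tapbp (1.58-fold), H2-Q7 (1.54-fold) and H2-T23 (1.54-fold), and class I genes are close copies of each other that a probe may not separate.

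Genes of DNA replication and mitosis were higher almost throughout. Of 23 measured cell cycle genes 20 were higher (19 at bounds) and 1 lower, with a median of 1.32. The thymidine kinase Tk1 had levels of 5.49, 8.30 and 9.20 on the lean, HFD-Ve and HFD-Rapa arrays, 7.0-fold higher in HFD-Ve, the mitotic kinase Cdk1 5.82, 8.12 and 8.82 (4.91-fold), and Top2a, the topoisomerase of dividing cells, 5.50, 7.63 and 8.38 (4.38-fold). On the lean array these 3 genes were near the lowest detected level of 5.48. The replication clamp Pcna was 3.70-fold and the helicase subunits Mcm6 and Mcm5 3.25-fold and 2.90-fold higher. The cell cycle inhibitor Cdkn1a was higher too, at 3.04-fold, and the 1 lower member was Ccnd2 (1.61-fold). Without background correction, which leaves the differences of dim genes compressed, the median of this list was 0.68. Mki67 had no named probe.

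**Figure D3:**
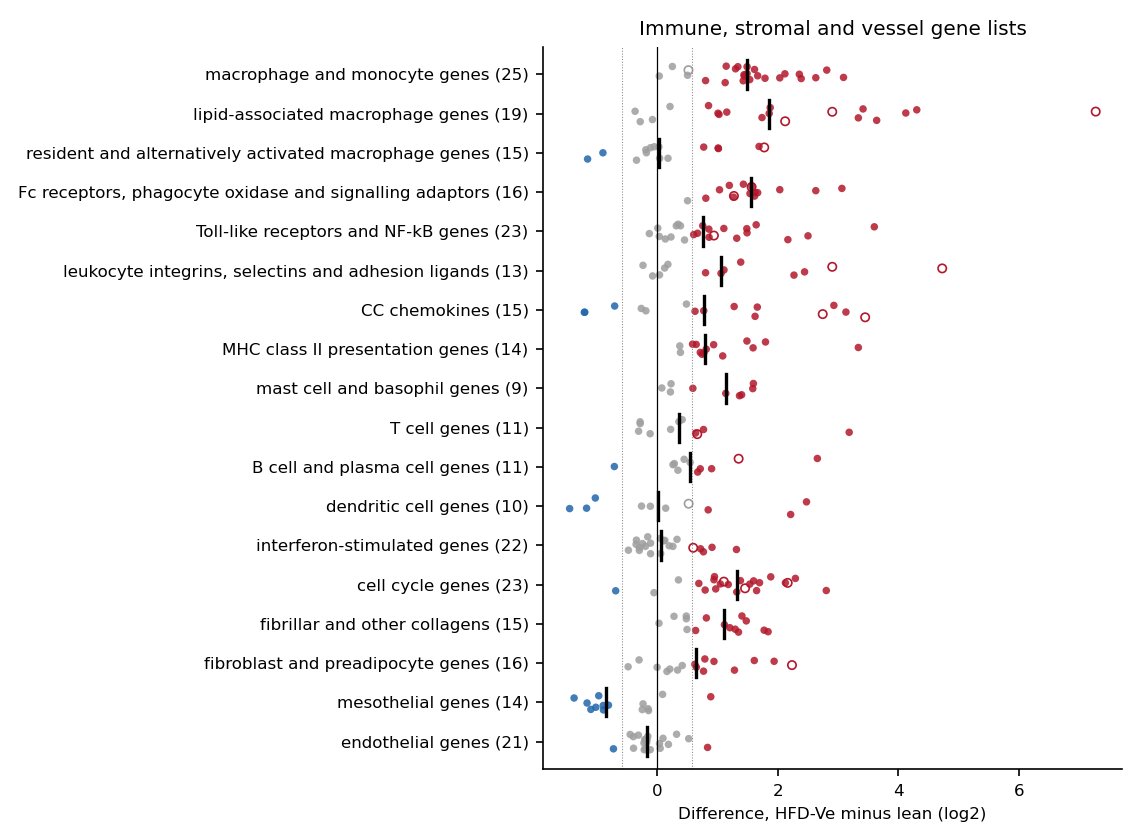
Difference of each measured member of 18 gene lists (log2, HFD-Ve minus lean, x axis), with the number of measured genes after each list's name. Red and blue points are members at least 1.5-fold higher and lower, gray points the others, open circles are genes detected on 1 of the 2 arrays, the black bar is the list's median and the dotted lines mark 1.5-fold. The medians above 1 are those of macrophage and monocyte, lipid-associated macrophage, Fc receptor, leukocyte adhesion, mast cell, cell cycle and collagen genes. The median of resident and alternatively activated macrophage genes lies at 0.03 and the mesothelial median at -0.85 (-0.48 without background correction).

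Collagen genes were higher as a group on the HFD-Ve array. Of 15 collagen chains 10 passed 1.5-fold upwards and none downwards (median 1.12). The fibrillar chains Col3a1, Col1a2 and Col1a1 were 3.59-fold, 3.43-fold and 2.31-fold higher and the microfibrillar Col6a1 2.17-fold, with all 3 probes alike. The basement membrane chains Col4a1 and Col4a2 were within 1.5-fold (each 1.40-fold higher). Of 23 other matrix genes 13 were higher and none lower (median 0.76). The proteoglycan Lum was 3.77-fold, the matricellular Thbs2 and Tnc 2.91-fold and 2.83-fold and the crosslinking oxidase Lox 2.35-fold higher, whereas fibronectin (Fn1, 11.20 and 11.29) and decorin (Dcn, 14.18 and 14.14) had similar levels on both arrays. Of 18 matrix proteases and inhibitors 9 were higher and 2 lower. Timp1 was 6.48-fold higher, Adam8, Adam12 and Mmp13 at least 5.48-, 5.47- and 3.91-fold, while the adipocyte inhibitor Timp4 (2.69-fold) and the gelatinase Mmp9 (3.10-fold) were lower. Fibroblast genes were higher in 9 of 16 with none lower, with Fap, a protease of activated fibroblasts, at 3.06-fold and the preadipocyte receptor Pdgfra under the threshold at 1.34-fold. The summed level of the fibroblast list was 14.0 on the lean array and 14.6 on the HFD-Ve array.

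The mesothelium, the epithelial sheet that covers visceral fat, ran the other way. Of 14 mesothelial genes 8 were lower and 1 higher, with a median of -0.85, or -0.48 without background correction. Upk3b, a uroplakin that marks mesothelial cells, had levels of 11.82 on the lean array, 10.80 with HFD-Ve and 11.42 with HFD-Rapa (2.02-fold lower in HFD-Ve, with all 3 probes alike). The keratin Krt19 stood at 7.70, 6.54 and 7.06 (2.23-fold), and the mesothelial factor Bnc1 at 8.20, 7.31 and 8.29 (1.85-fold). For these genes the HFD-Ve array was the lowest of the 3. Msln, mesothelin, was within 1.5-fold (7.39 and 7.14), and the higher member was Igfbp5, which other stromal cells express as well (1.86-fold). The summed level of the list was 13.7 on both arrays, Igfbp5 included. How much of the outer surface of the depot entered each pool was not tested.

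Endothelial genes were close to even, with 1 of 21 higher (Cd36, which adipocytes also express), 1 lower and a median of -0.17, which turned to 0.04 under median scaling. The adhesion genes Pecam1 and Cdh5 stood at 9.31 and 9.35 and at 9.01 and 9.20, and the receptor Flt1 was 1.65-fold lower. Of 17 angiogenic and hypoxia genes 7 were higher (6 at bounds) and 6 lower. Vegfa and Vegfb were 1.86-fold and 1.87-fold lower and the vessel-stabilizing Angpt1 2.48-fold lower, while its antagonist Angpt2 was 2.08-fold higher, with levels of 8.21 and 9.27. Hif1a was 1.6-fold higher and the hypoxia target Car9 at least 1.20-fold, whereas Pdk1 (2.86-fold) and Egln3 (1.72-fold), also hypoxia targets, were lower.

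Lipogenesis was lower from its regulators to its enzymes. Of 18 measured fatty acid synthesis genes 16 were lower and none higher (median -1.68), or 15 at bounds. The carbohydrate-response factor ChREBP, encoded by Mlxipl, had levels of 10.92 on the lean array, 8.70 with HFD-Ve and 7.83 with HFD-Rapa (4.66-fold lower in HFD-Ve), and Srebf1, which encodes SREBP-1, 10.81, 9.27 and 8.33 (2.91-fold). The citrate-cleaving Acly stood at 14.92, 12.91 and 12.53 (4.03-fold) and the fatty acid synthase Fasn at 10.08, 7.96 and 7.06 (4.36-fold). In all 4 the lean array was the highest and the HFD-Rapa array the lowest. Pnpla3, a lipogenic target, was 4.95-fold and the acetate-activating Acss2 3.51-fold lower. The 2 members within 1.5-fold were the desaturase Scd1 (14.65 and 14.42) and malic enzyme Me1 (11.77 and 11.45). For cholesterol synthesis and uptake 4 of 17 genes were lower and 1 higher, with a median of -0.30. Mvd, Cyp51, Pmvk and Sqle were 2.04-, 1.99-, 1.92- and 1.91-fold lower and Idi1 1.80-fold higher.

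Genes of triglyceride synthesis, storage and release ran both ways. Of 13 triglyceride synthesis genes 5 were lower and 2 higher, with a median of -0.18 that turned to 0.02 under median scaling. Gpam, the first acyltransferase of the pathway, was 2.88-fold lower, and Dgat1, Agpat2, Gpat3 and Lpin1 were 1.67-, 1.67-, 1.53- and 1.52-fold lower. The acyltransferases Agpat3 and Mogat2 were 1.95-fold and 1.5-fold higher, and Dgat2, which makes the last step, was at 14.70 and 14.70. Of 19 lipolysis and droplet genes 5 were lower and 1 higher (median 0.03). The droplet coat Plin1 was 1.94-fold, the triglyceride lipase ATGL, encoded by Pnpla2, 1.62-fold and its inhibitor G0s2 1.75-fold lower, and the carboxylesterases Ces1f and Ces1d 2.02-fold and 1.55-fold. Plin2, the coat of droplets outside adipocytes as well, was 2.02-fold higher. The hormone-sensitive lipase Lipe (9.32 and 9.51), Plin4 (14.43 and 14.40) and Cidec were even. Lipoprotein lipase (Lpl) stood at 15.13 and 15.05, the fatty acid receptor Cd36 was 1.79-fold higher and Apoc1 2.76-fold lower.

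Fatty acid oxidation genes were even as a list, with 1 of 27 higher and 4 lower (14.8%, beside 12.0% of all genes). Their median was -0.02, or 0.17 under median scaling. Cpt1b, the muscle-type carnitine palmitoyltransferase, was the higher one (2.39-fold). Besides Acsm3, the lower ones were the peroxisomal membrane protein Pex11a (2.91-fold, 4 probes alike), the carnitine acetyltransferase Crat (1.99-fold) and the isomerase Eci1 (1.61-fold). Branched-chain amino acids take another route into the mitochondria of adipocytes, and their breakdown genes were lower in 8 of 19 with 1 higher (median -0.45). The transaminase Bcat2 had levels of 12.64, 11.27 and 10.69 on the lean, HFD-Ve and HFD-Rapa arrays (2.60-fold lower in HFD-Ve), the dehydrogenase Ivd 12.27, 11.00 and 9.82 (2.40-fold), and the branched-chain dehydrogenase subunits Bckdha and Dbt were 1.85-fold and 1.98-fold lower. The cytosolic transaminase Bcat1, known from leukocytes among other cells, was 7.73-fold higher, with levels of 6.64, 9.59 and 8.45.

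Genes of pyruvate entry into the citric acid cycle were lower on the HFD-Ve array. Of 23 genes 7 were lower and 3 higher (median -0.46), or -0.27 under median scaling. Pyruvate carboxylase (Pcx) was 2.87-fold and the pyruvate dehydrogenase subunits Pdha1, Pdhb and Dlat 2.12-, 2.19- and 1.69-fold lower, and the kinases that switch this enzyme off ran both ways, Pdk4 1.98-fold higher, Pdk2 2.11-fold and Pdk1 2.86-fold lower. The dehydrogenase Idh2 was 1.55-fold and the synthetase subunit Sucla2 at least 1.56-fold higher as well. Of 32 subunits of the respiratory chain 4 were lower (Ndufs7, Ndufa5, Ndufv1 and Uqcrc2, by 1.5-fold to 1.6-fold) and none higher. That share lower, 12.5%, was close to the 12.0% of all genes. Their median was -0.37, or -0.16 under median scaling, with members from -0.68 to 0.53. Mitochondrial ribosomal proteins had 2 of 34 lower (Mrpl45 and Mrps34, 5.9%, or 1 at bounds) and a median of -0.26 (-0.05 under median scaling). Cytosolic ribosomal proteins had 2 of 32 higher (Rpl13a and Rplp0, 6.2%, beside 15.1% of all genes) and a median of 0.11. The coactivators of mitochondrial genes Ppargc1a and Ppargc1b were 1.82-fold and 2.72-fold lower. Ucp1, the uncoupling protein of brown fat, stood at 8.46 on the lean array, 6.31 with HFD-Ve and 5.66 with HFD-Rapa (4.42-fold lower in HFD-Ve), while the brown fat genes Cidea (8.61 and 8.65) and Cox8b (11.29 and 11.15) were even and the factor Prdm16 was 1.74-fold higher.

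**Figure D4:**
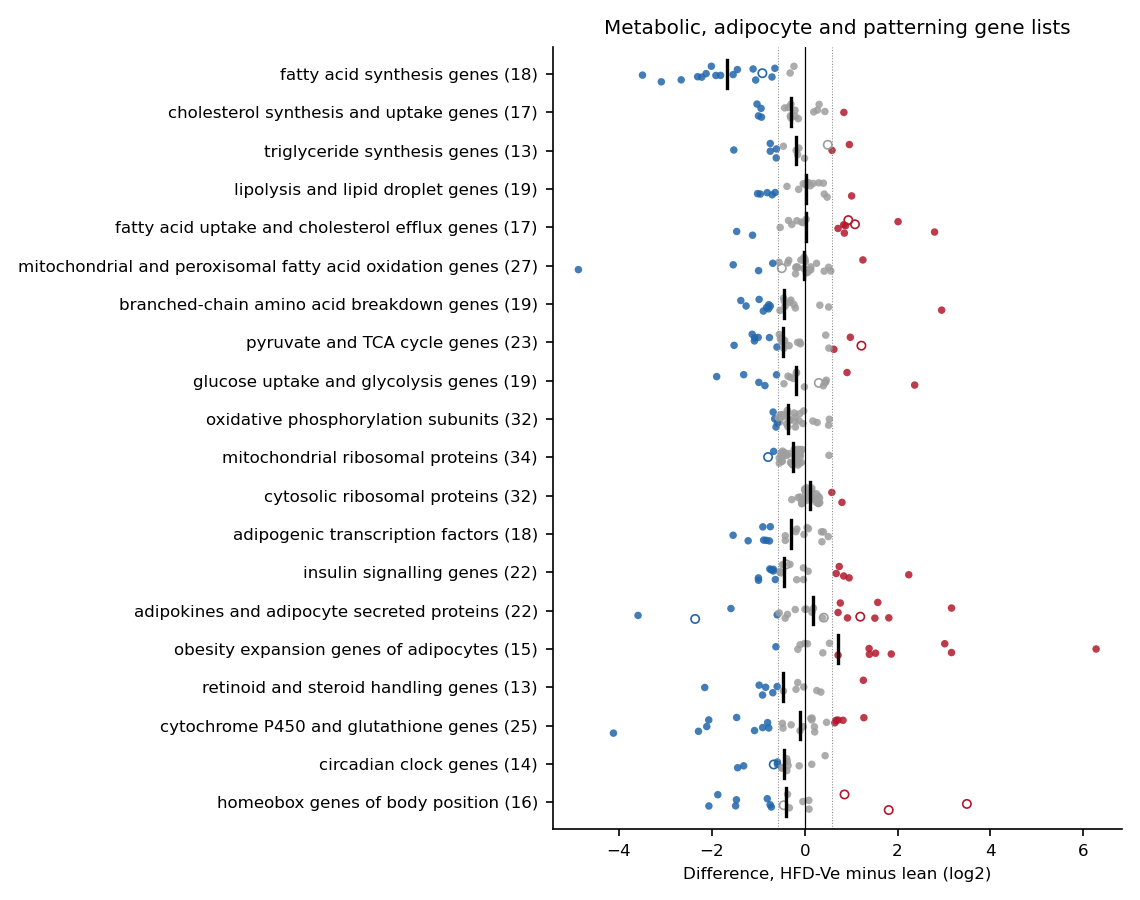
Difference of each measured member of 20 metabolic, adipocyte and patterning gene lists (log2, HFD-Ve minus lean, x axis), with the number of measured genes after each list's name. Colors, circles, bars and dotted lines are as in the plot of immune and stromal lists. The fatty acid synthesis median lies at -1.68, the oxidative phosphorylation members stay between -0.68 and 0.53, and Acsm3 is the far point at the left of the fatty acid oxidation list.

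Genes on the path from insulin to glucose uptake were lower at several steps. The insulin-responsive transporter GLUT4, encoded by Slc2a4, had levels of 10.27, 8.96 and 7.72 on the lean, HFD-Ve and HFD-Rapa arrays and was 2.49-fold lower in HFD-Ve. The insulin receptor Insr was 1.59-fold, the receptor substrates Irs2 and Irs3 1.68-fold and 2.0-fold and the regulatory subunit Pik3r1 1.99-fold lower, the last with all 3 probes alike. Inhibitors of insulin signalling ran both ways. Grb14 was 4.73-fold higher, with levels of 7.51 and 9.76, the phosphatase Ptpn1 1.94-fold and Socs3 1.79-fold, while Grb10 was even at 10.40 and 10.38 and Trib3 was 1.55-fold lower. The ubiquitin ligase Cblb was 1.68-fold and the mTOR-binding Deptor 1.6-fold higher. In the whole list of 22 insulin signalling genes 7 were lower and 5 higher (median -0.44). The probes of Irs1, Akt1 and Tbc1d4 gave no detected signal, whereas the study's western blots of VWAT measured total IRS-1 and AKT protein. Glycolysis genes were mixed, 5 of 19 lower and 2 higher. Hk3, the hexokinase of leukocytes, was 5.17-fold higher and the platelet-type phosphofructokinase Pfkp 1.88-fold, while its muscle and liver forms Pfkm and Pfkl were 1.98-fold and 1.52-fold lower, the enolase Eno3 1.81-fold and the transporter Slc2a3 3.72-fold.

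Adipogenic transcription factors had 7 of 18 lower and none higher (median -0.30). Pparg, the central regulator of adipocyte genes, had levels of 12.84, 11.96 and 11.03 on the lean, HFD-Ve and HFD-Rapa arrays (1.85-fold lower in HFD-Ve, 3 probes alike), its partner Rxra was 2.33-fold lower and Ebf1 1.77-fold lower. Cebpa (9.30 and 8.88) and Cebpb (11.68 and 12.18) were within 1.5-fold. Adipokines ran both ways, 8 of 22 higher (7 at bounds) and 4 lower. Lep, leptin, stood at 14.19, 14.91 and 14.83 (1.65-fold higher in HFD-Ve), while Retn, resistin, stood at 8.10, 6.51 and 4.94 (3.01-fold lower) and the retinol carrier Rbp4 was 1.51-fold lower. Adiponectin, shown above, was within 1.5-fold, and Cfd, adipsin, had no named probe.

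Of 15 genes listed for adipocytes of expanding fat pads 8 were higher and 1 lower (median 0.72). The list was chosen with earlier results of these data known, and its member with the largest difference was Tph2, so the count is a description only. Mest, an imprinted gene of expanding fat, had levels of 9.48, 12.50 and 11.38 on the lean, HFD-Ve and HFD-Rapa arrays (8.10-fold higher in HFD-Ve, 3 probes alike), the Wnt antagonist Sfrp5 6.95, 10.11 and 9.30 (8.95-fold), and Bmp3 9.0, 10.86 and 10.44 (3.64-fold). In these 3 genes the HFD-Ve array was the highest. The lipase inhibitor Angptl4 was 2.88-fold higher, the imprinted Peg3 2.63-fold and the caveola coat Cavin1 1.65-fold, while Cav1 was even at 14.13 and 14.13. The preadipocyte factor Dlk1 was 1.54-fold lower. In the growth hormone axis Cish, a target of the receptor, was 2.02-fold, Igf2 1.91-fold and the binding protein Igfbp2 1.80-fold lower, and Igf1 was even at 11.57 and 11.53.

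Several genes of steroid and foreign-compound metabolism were lower. Hsd11b1, which regenerates active glucocorticoid, had levels of 14.36, 12.21 and 11.18 on the lean, HFD-Ve and HFD-Rapa arrays, 4.45-fold lower in HFD-Ve with all 3 probes alike. Fkbp5, a glucocorticoid target, was 1.97-fold lower, the estrogen receptor Esr1 1.88-fold and Retsat, which saturates retinol, 1.61-fold. Of 13 retinoid and steroid genes 6 were lower and 1 higher, the retinaldehyde dehydrogenase Aldh1a3 (2.40-fold). Of 25 cytochrome P450 and glutathione genes 9 were lower and 5 higher. Cyp2e1, a P450 that oxidizes ethanol and acetone, stood at 14.82, 12.75 and 9.75 (4.19-fold lower in HFD-Ve), and the glutathione transferases Gsta3 and Gsta4 were 4.88-fold and 4.32-fold lower. Thioredoxin reductase Txnrd1 was the highest of this list at 2.42-fold.

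Of 14 clock genes 5 were lower (4 at bounds) and none was higher (median -0.44). The repressor Nr1d1, REV-ERB alpha, had levels of 8.73 and 7.41 on the lean and HFD-Ve arrays (2.49-fold lower) and Bhlhe40 11.14 and 9.70 (2.72-fold lower), and the other lower ones were Per3 (1.5-fold), Npas2 (1.5-fold) and Ciart (at least 1.38-fold). The core factors Arntl (8.41 and 8.56) and Clock (10.79 and 10.67) were even. The sources used here give no hour of death for any group, and its part was not tested. Immediate early genes, which respond within minutes to handling or injury, were higher in 8 of 17, and Ier3 was 2.13-fold lower. Egr2 was 7.27-fold and Fos 5.65-fold higher, Junb 2.33-fold and Egr1 1.74-fold. Among 20 genes of endoplasmic reticulum stress and the amino acid response 4 were higher and 4 lower. Besides Atf3, the chaperone Hspa5 was 3.81-fold, the hormone Fgf21 1.70-fold and the stress factor Ddit3 1.57-fold higher. Asns, asparagine synthetase, was 1.99-fold, the serine synthesis enzyme Phgdh 1.69-fold, Xbp1 1.63-fold and the kinase-like Trib3 1.55-fold lower.

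Homeobox genes, which keep a record of position along the body and differ between fat depots, differed in both directions. Of 16 measured 7 were lower and 3 higher (median -0.41), and 2 were higher at bounds. Hoxb6 had levels of 7.96, 5.90 and 6.26 on the lean, HFD-Ve and HFD-Rapa arrays (4.18-fold lower in HFD-Ve), Hoxa7 9.43, 7.56 and 7.59 (3.66-fold), Hoxa5 9.70, 8.21 and 8.45 (2.80-fold) and Hoxb5 8.26, 6.79 and 6.62 (2.77-fold). For these 4 genes the lean array was the highest. Hoxc10 and En1, both known in mice from inguinal subcutaneous rather than perigonadal fat, were detected on the HFD-Ve array and not on the lean one. Hoxc10 stood at 5.20, 8.69 and 5.78, with 2 probes alike, and En1 at 5.28, 7.09 and 5.92 (at least 3.04-fold higher in HFD-Ve). The HFD-Ve array stood alone as high in both. The other higher member was Hoxa9, detected on the HFD-Ve array only, at 5.43. Hoxc9 (9.47 and 9.43) and Hoxd8 (9.56 and 9.19) were within 1.5-fold, and Tbx15 and Shox2, also known from subcutaneous fat, were not detected. How much tissue of another depot each pool held was not tested.

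Genes commonly taken as steady were not all even. Of 14 reference genes 3 were higher (21.4%, beside 15.1% of all genes) and none lower (median 0.24). Eef2, the study's internal control for quantitative PCR, stood at 9.46 and 9.39, and Actb, beta-actin, at 13.12 and 13.42. Gusb, a lysosomal enzyme, was the reference gene with the largest difference (2.56-fold higher). The others were Nono (2.44-fold) and the ribosomal Rplp0 (1.5-fold). Of 27 proteasome subunits 2 were higher (Psmd6 and Psmc6) and 1 lower (Psmb1), and of 20 autophagy genes 2 were higher (Mitf and Gabarapl2) and none lower. The Y-linked genes Eif2s3y, Kdm5d and Uty were detected on all 3 arrays, Eif2s3y at 9.97, 10.45 and 10.05 for lean, HFD-Ve and HFD-Rapa, and Xist, which is transcribed from the inactive X chromosome of females, was not detected on any of them. By chromosome, the share of measured genes that were higher ran from 9.82% of 326 on chromosome 16 to 20.3% of 541 on chromosome 1, and the share lower from 9.06% on chromosome 1 to 19.5% of 421 on chromosome 15.

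The counts depended on how the arrays were brought to a common scale. With quantile normalization 55.6% of the genes past 1.5-fold were higher. With median scaling, which moved the median of all genes from -0.06 to 0.15, the split was 2259 higher and 698 lower, or 76.4% higher. Median scaling also brought the list medians of branched-chain amino acid breakdown and insulin signalling to -0.26, of the clock to -0.21 and of adipogenic factors and cholesterol synthesis to -0.08. Without background correction 976 genes were higher and 682 lower, and the medians were 0.48 for Toll-like receptors and NF-kB, 0.25 for B cells, 0.23 for T cells and -0.25 for homeobox genes.

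**Figure D5:**
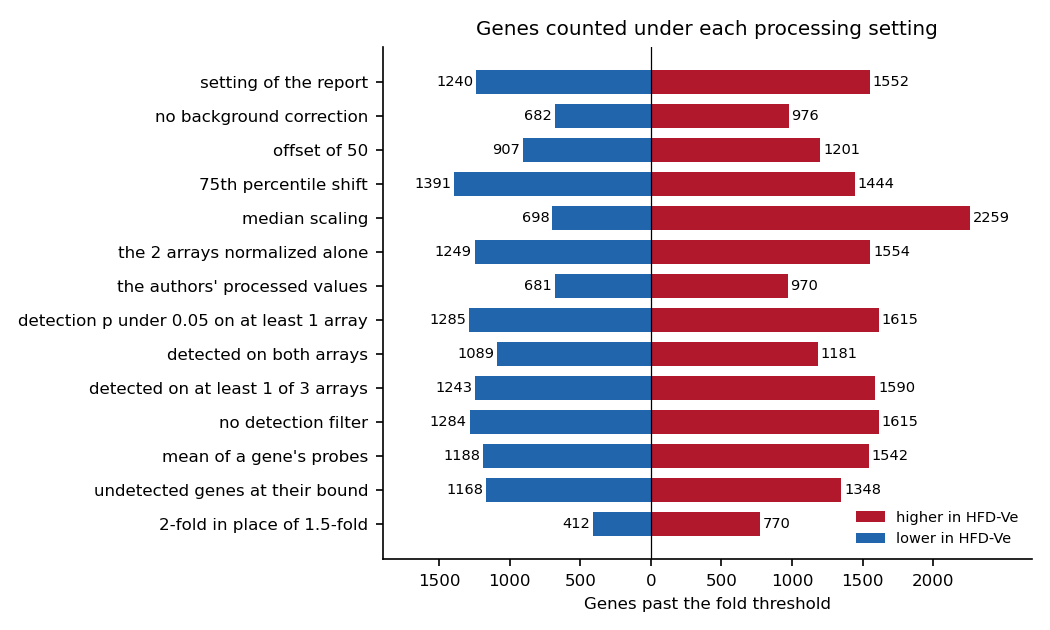
Number of genes at least 1.5-fold higher (red, to the right) and lower (blue, to the left) on the HFD-Ve array under each processing setting, with the counts beside the bars and a 2-fold threshold in the last row. The split moves most under median scaling, at 2259 higher and 698 lower.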

How the data were processed

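RNA of visceral fat was measured on Illumina Mouse WG-6 V2 bead arrays, with 1 array for each of 3 pools. The authors deposited a table of raw probe intensity with a detection p-value for each probe, and a second table of processed intensity on a linear scale whose method is not given in the sources used here. The submitters' processing notes name GenomeStudio, and the study's methods name GeneSpring. Raw intensities were background-corrected from the detection p-values (limma 3.58.1, function nec, offset 16, R 4.3.3). They were then quantile-normalized over the 3 arrays and taken to log2 afterwards. Of 45281 probes, 18251 had a detection p under 0.01 on the lean or the HFD-Ve array. Gene names came from the platform annotation, in which 34885 probes had 1 gene, 18 had several and 10378 of the array were not listed. Each gene was read from its brightest kept probe. Tables were handled in Python 3.11.15 with pandas 2.3.3, and the steps were checked on simulated arrays.

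A gene counted as higher or lower at 1.5-fold. No test was possible with 1 array a group, and bead arrays hold no counts, so the number of arrays limits the precision. Alternative settings were raw signals left uncorrected, an offset of 50, median scaling, a 75th percentile shift, normalizing the 2 arrays alone, the authors' processed values, other detection filters, the mean of a gene's probes, all probes, bounds for undetected genes and a 2-fold threshold.

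The comparison, its members and the 68 gene lists (1348 genes, 1005 measured, 81 in more than 1 list) were chosen with earlier results of these data known. Genes were named by rule: the 15 highest and 15 lowest detected on both arrays, the 10 largest bounds on each side, each list's first 3 members and the 5 with the largest difference, and genes the study measured by other means. Other named genes were chosen after their values were seen. The labels and the study's methods differ on the lean diet, on the RNA kit and on the age at sacrifice.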

Additional observations from a re-analysis of the deposited data

Results flagged for a closer look

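The report uses only probes with a gene name. Of the probes detected on the lean or the HFD-Ve array, 2541 had no gene name in the annotation used here, and 409 of these (16.1%) were at least 1.5-fold higher on the HFD-Ve array and 386 (15.2%) lower, beside 15.1% and 12.0% of the named genes. Among the unnamed probes detected on both arrays the highest fold was 8.9. The 2541 probes were singled out because they carry signal that no comparison above uses. What they measure was not tested.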

How the results depend on the processing

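Each count was recomputed with 1 choice changed at a time. The number of genes higher on the HFD-Ve array was 976 without background correction, 970 with the authors' processed values and 770 at 2-fold. The number lower was 682 without background correction, 698 under median scaling, 681 with the authors' values and 412 at 2-fold. When probes were counted in place of genes, 2724 of 18251 were higher and 2283 lower, beside 1552 and 1240 of 10295 genes. The larger probe counts thus came with a larger total. Under the other settings both counts stayed within 1.5 times the reported ones. Higher genes made up between 50.9% (75th percentile shift) and 76.4% (median scaling) of the genes past 1.5-fold. Of 360 named genes 136 moved by more than the SD between probes without background correction, and among those past 1.5-fold the direction turned for Serpina1a alone, whose log2 difference was -0.15 at a detection p under 0.05 and without a detection filter. Signal over background limits the dim genes, and 524 of the 2792 genes were not detected on the dimmer array. No paired analysis was possible because each group had 1 array, and for the same reason no replicate could be left out.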
